A study of Drosophila melanogaster with 12 samples.

Results

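Of 5933 transcripts that the authors assembled from their reads, 82 (1.38%) were lost in *ISWI* mutant larvae of *Drosophila melanogaster*. A transcript was counted as lost when its normalized count was at least 10 in every one of the 6 control libraries and at most 3 in every one of the 6 mutant libraries. The normalized count is the number of reads of a transcript divided by one size factor of its library. One assembled locus, MSTRG.267, was set apart and is not counted among the 5933, and the whole table held 41081 transcripts. The 82 lost transcripts came from 55 of the 2341 assembled loci. They were chosen by their normalized counts in mutants and controls, so this difference is described below and was not tested.

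Whole larvae of the third instar were sequenced after removal of ribosomal RNA, in 4 groups of 3 libraries each: mutant females, mutant males, control females and control males. The mutants were Iswi1/Iswi2, larvae that carry a different point mutation of *ISWI* on each copy of chromosome 2, and the controls were +/+. Mutants were the larvae without green fluorescence from a cross of a pair of *y w* stocks balanced with CyO·GFP, and the controls were wild-type larvae, so the mutation and the strain background cannot be told apart in any comparison of the genotypes. All stocks were kept at 25 degrees, and each library was made from pooled larvae.

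ISWI is the ATPase motor of several chromatin remodelling complexes that slide and space nucleosomes along DNA. In flies it is needed for viability, and without it the X chromosome of males loses its compact structure in polytene nuclei. An assembled transcript is a chain of exons that the program StringTie builds from spliced reads, and transcripts that overlap are given one locus number followed by an isoform number, so MSTRG.7589.6 is isoform 6 of the locus MSTRG.7589. The reads of overlapping isoforms are divided among them by StringTie, so that isoforms of one locus are not independent measurements. A locus here holds only the assembled isoforms that the authors' filters kept. Known transcripts were not assigned to loci, so totals and shares of a locus leave them out. No gene name, position or function is given here for any assembled locus, because none was linked to these identifiers in the sources used, and no sequence is shown for the same reason. The level of *ISWI* itself was not analysed here.

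The libraries held between 89290368 and 119202607 reads, and 3 reads, taken as the limit of detection, were worth between 1.89 and 3.76 normalized counts. Between 8.46% and 21.0% of all transcripts had no read in a library, and the lowest of these shares belonged to replicate 2 of the mutant males. Counts of calls in males are therefore also given without replicate 2 of both male groups. The libraries are bulk RNA of whole larvae, where fewer cells of a type and less RNA per cell cannot be told apart.

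Loss by this rule was most frequent among assembled transcripts. Of the 2930 assembled transcripts that reached 10 in every control library, 82 (2.80%) met it. The same rule was met by 19 of 18344 known transcripts (0.104%) and by 1 of 1399 transposable element insertions (0.0715%). Turned round, with at least 10 in every mutant library and at most 3 in every control library, the rule was met by 91 of 2876 assembled transcripts (3.16%) from 63 loci, 24 of 18174 known transcripts (0.132%) and 11 of 1474 transposable element insertions (0.746%). Among assembled transcripts the shares in both directions were similar, and transcripts found in one genotype only were more frequent among assembled than among known transcripts in each. Because the rule itself made these counts, they are given without a test.

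Most of the lost transcripts had no read assigned to them in the mutants. Where a locus had overlapping isoforms, a count of 0 does not show that no read matched the lost one. Of the 82, 75 had no read in any of the 6 mutant libraries, 78 had none in any mutant female library and 76 none in any mutant male library. Summed over all lost transcripts, the libraries of mutant females held 2, 4 and 5 reads and those of mutant males 3, 8 and 1, against 87202, 90689 and 73544 reads in control females and 70419, 123481 and 50353 reads in control males. In the controls these reads made up 0.0557% to 0.112% of a library. No lost transcript exceeded 3 reads in a mutant library.

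The 7 lost transcripts with any mutant read held 23 reads in all. MSTRG.7175.1 had 5 reads in mutant females and 3 in mutant males, and MSTRG.11401.3 had 4 and 2. MSTRG.10576.2 had 3 reads in mutant males and none in mutant females, and MSTRG.241.15 had 1 read in mutant females and 2 in mutant males. MSTRG.11265.3, MSTRG.9088.40 and MSTRG.2409.2 had 1 read each. For most of the 7 the residue was a small remnant of a large count: the ratio of control to mutant reads for MSTRG.7175.1 was 1109 in females (95% interval 475 to 3416) and 2915 in males (997 to 14136). The ratio was smallest for MSTRG.11401.3 in females, at 25.5 (9.97 to 93.7). These intervals cover counting error only.

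The levels in the controls were well above the limit of 10. The mean over the 6 control libraries ran from 52.3 to 4319, with a median of 393, and 76 of the 82 reached 100 and 25 reached 1000. For the transcripts without a read in a sex of the mutants, the fold was computed as a lower bound, against 3 reads in each library. This bound allows for the depth of the libraries and not for the division of reads among isoforms. In females it lay between 12.1-fold and 1203-fold lower with a median of 112 over 78 transcripts, and in males between 9.33-fold and 1844-fold lower with a median of 132 over 76.

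**Figure D1:**
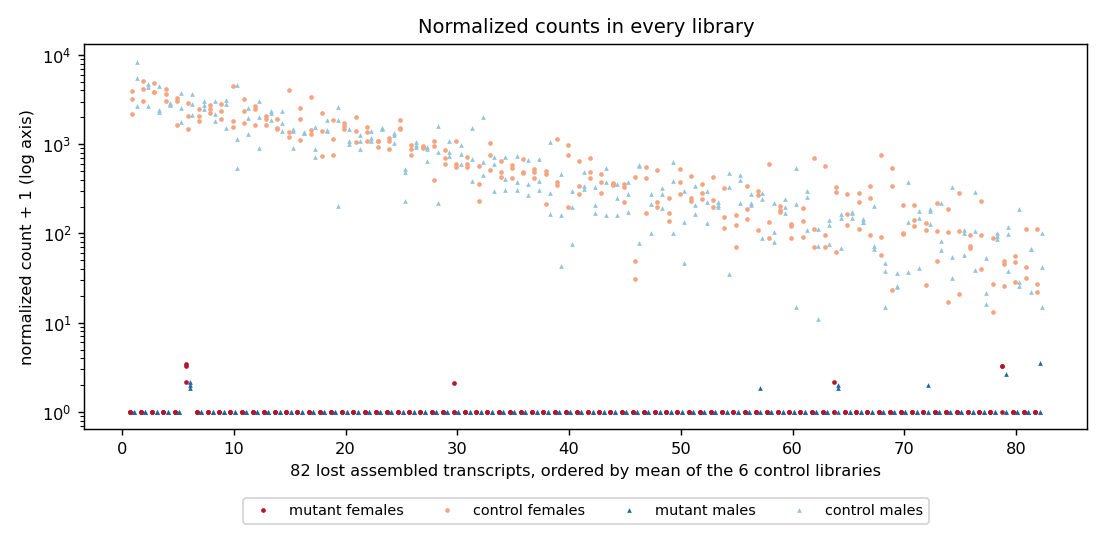
Normalized count + 1 (vertical, log axis) of the 82 lost transcripts in each of the 12 libraries, with the transcripts along the horizontal axis from the highest to the lowest control mean and 1 point per library, coloured by group. The mutant points lie at a count of 0 for 75 transcripts, and every control point is at 10 or more.

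MSTRG.13735.2 was the most abundant of the lost transcripts. It had 0 in each of the 6 mutant libraries, against 3204, 2149 and 3953 in control females and 8428, 2655 and 5528 in control males, at least 890-fold lower in mutant females and 1844-fold lower in mutant males. MSTRG.9886.1 had 0 in all mutants, against 4148, 5072 and 3013 in control females and 2666, 4325 and 4736 in control males (at least 1170-fold and 1302-fold lower in the females and males). MSTRG.15515.1 likewise had 0, against 4838, 3865 and 3874 in control females and 2280, 4494 and 2412 in control males. These 3 isoforms differed between control libraries by less than 4-fold, and in none of them did control males and control females separate.

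MSTRG.9617.5 was the steadiest of the 12 most abundant transcripts: it had 0 in every mutant library, against 3622, 4179 and 3022 in control females and 2716, 2863 and 2812 in control males. MSTRG.8937.1 had 0 in the mutants, against 1632, 3023 and 3293 in control females and 2535, 3778 and 1786 in control males. MSTRG.1012.1 had 0 in the mutants, against 2493, 2728 and 2255 in control females and 2175, 3073 and 1820 in control males. For MSTRG.9617.5 every control male lay below every control female, and for the other two the sexes overlapped.

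Locus 7175 held 2 assembled isoforms, both lost. MSTRG.7175.1 had at most 2.43 in a mutant library, against 2901, 2040 and 1492 in control females and 2125, 3662 and 2793 in control males. MSTRG.7175.2 had 0 in all mutants, against 2354, 2829 and 1933 in control females and 2792, 1520 and 3112 in control males. Among the control males, replicate 2 was highest for MSTRG.7175.1 and lowest for MSTRG.7175.2. MSTRG.2056.2, from another locus, had 0 in the mutants, against 2470, 1653 and 2701 in control females and 902, 3042 and 2038 in control males.

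Another 3 isoforms complete the 12 most abundant, all of loci that lost several. MSTRG.7589.6 had 0 in the mutants, against 1823, 2475 and 2073 in control females and 2764, 3017 and 2459 in control males. MSTRG.7589.1 had 0, against 2377, 3231 and 1714 in control females and 1972, 2566 and 1297 in control males. MSTRG.13735.3 also had 0, against 1809, 4532 and 1557 in control females and 541, 4561 and 1149 in control males. Replicate 2 of each control sex was the highest for all 3 of these isoforms.

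The scatter of the lost transcripts among the controls resembled that of other assembled transcripts. The highest of the 6 control libraries was 1.38 times the lowest for MSTRG.14110.1 and 1.43 times for MSTRG.12061.5 and MSTRG.1949.1, but 69.6 times for MSTRG.8481.43, 54.8 times for MSTRG.8481.44 and 39 times for MSTRG.2014.15. The median of this ratio was 3.42 over the lost transcripts, against 3.64 over the other 2848 assembled transcripts that reached 10 in every control. It was under 2 for 15 lost transcripts and above 10 for 14. The median coefficient of variation within control females was 34.9% for lost transcripts and 32.7% for the other assembled ones, and within control males 39.7% and 42.9%. Each control library was the highest for between 7 and 21 transcripts and the lowest for between 9 and 24.

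At the edges of the rule, values ran on without a gap. The lowest control minima inside it were 10.03 for MSTRG.8481.43, 12.1 for MSTRG.12050.1, 13.8 for both MSTRG.8481.44 and MSTRG.2014.15, and 14.1 for MSTRG.10576.2. Just outside, with no more than 3 in any mutant, lay MSTRG.4344.5 at 9.43, MSTRG.2266.1 at 5.66, MSTRG.9255.1 at 5.01, MSTRG.9631.5 at 4.86 and MSTRG.5567.1 at 3.76. On the mutant side, the highest values inside the rule were 2.51 for MSTRG.10576.2, 2.43 for MSTRG.7175.1, 2.29 for MSTRG.11401.3, 1.15 for MSTRG.241.15 and 1.12 for MSTRG.11265.3. The nearest outside were MSTRG.266.11 at 3.36, MSTRG.3711.1 at 4.18, MSTRG.1256.9 and MSTRG.2186.2 at 5.02 each, and MSTRG.15636.1 at 5.61. Raising the mutant limit to 10 would have taken the count to 98, and raising the control minimum to 20 would have left 75.

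Single mutant libraries kept further transcripts out. Without replicate 3 of the mutant females, 26 more transcripts of 15 loci met the rule, with values between 3.36 and 214 in that library (median 51.0). Without replicate 2 of the mutant males, 24 more of 22 loci did, with values between 4.18 and 37408 there (median 95.3), and 11 of them reached 100. For the other 4 mutant libraries the number was 6, 5, 5 and 0, and for a control library between 1 and 9. Zeros beside high counts were also found within groups. Of the assembled transcripts that reached 100 in some library of a group, 24.8% of 4003 in mutant females and 24.0% of 4292 in mutant males were at 0 in another library of that group, against 20.5% of 3885 in control females and 22.7% of 4093 in control males. Among known transcripts these shares lay between 5.57% and 7.34%.

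The lost transcripts were unevenly spread over loci. Of the 55 loci, 43 lost 1 isoform, 7 lost 2, and MSTRG.13735 lost 3, MSTRG.2986 and MSTRG.8481 4 each, MSTRG.9088 5 and MSTRG.7589 9, so that 12 loci held 39 of the 82. Loci with a loss had a median of 3 assembled isoforms and up to 104, against a median of 1 over all assembled loci, and 21.8% of them had a single isoform, against 55.4% of all assembled loci. A locus with more isoforms has more chances to hold a member, and this was not corrected for.

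MSTRG.7589 lost 9 isoforms and held 9 others, and the lost ones made up 72.8% of its count in the controls. Beside MSTRG.7589.6 and MSTRG.7589.1, the largest were MSTRG.7589.7, with 0 in the mutants against 1368, 4001 and 1210 in control females and 914, 1495 and 1417 in control males, and MSTRG.7589.4, with 0 against 1440, 3399 and 1284 in control females and 890, 1543 and 724 in control males. MSTRG.7589.11 had 0, against 1386, 2010 and 1050 in control females and 1255, 1091 and 881 in control males. In all of these control females, replicate 2 was the highest library. The 4 smallest, MSTRG.7589.9, MSTRG.7589.17, MSTRG.7589.15 and MSTRG.7589.12, averaged between 359 and 548 in control females and between 256 and 478 in control males, and were at 0 in all mutants. Together the 9 summed to 0 in the mutants, against 12126 ± 4334 in control females and 9640 ± 2029 in control males (SD, n = 3 each).

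MSTRG.9088 was a locus of 104 isoforms and lost 5 minor ones. MSTRG.9088.37 had 0 in the mutants, against 221, 361 and 330 in control females and 272, 380 and 173 in control males. The others, MSTRG.9088.78, MSTRG.9088.86, MSTRG.9088.70 and MSTRG.9088.40, averaged between 224 and 393 in control females and between 158 and 262 in control males. The 5 made up 7.95% of the count of this locus in the controls. In MSTRG.2986 the lost isoforms were MSTRG.2986.20, MSTRG.2986.9, MSTRG.2986.17 and MSTRG.2986.14, each averaging between 137 and 294 in a control sex, and they made up 12.7%.

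In MSTRG.8481, the 4 lost isoforms were highest in 1 library of the control females. MSTRG.8481.43 had 0 in the mutants, against 698, 112 and 68.7 in control females and 70.4, 112 and 10.03 in control males. MSTRG.8481.44 had 0, against 755, 90.2 and 56.8 in control females and 36.6, 45.3 and 13.8 in control males, and MSTRG.8481.5 had 0, against 284, 105 and 20.2 in control females and 109, 99.9 and 56.4 in control males. Replicate 1 of the control females was the high library for these 3 and for MSTRG.8481.31, which averaged 285 in control females and 211 in control males. MSTRG.8481.43 and MSTRG.8481.44 were also among the 5 transcripts nearest to the control minimum of the rule.

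MSTRG.13735 lost 3 of its isoforms, and MSTRG.2561 lost both of its assembled isoforms. Beside the 2 abundant isoforms above, MSTRG.13735.5 had 0 in the mutants, against 1523, 1865 and 1485 in control females and 526, 480 and 231 in control males. MSTRG.2561.1 had 0, against 1579, 1495 and 1714 in control females and 1078, 1478 and 995 in control males. MSTRG.2561.3 had 0, against 159, 68.8 and 125 in control females and 446, 219 and 395 in control males. The sexes of the controls stood in opposite order for the isoforms of MSTRG.2561, without overlap in either, although neither passed the test below.

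**Figure D2:**
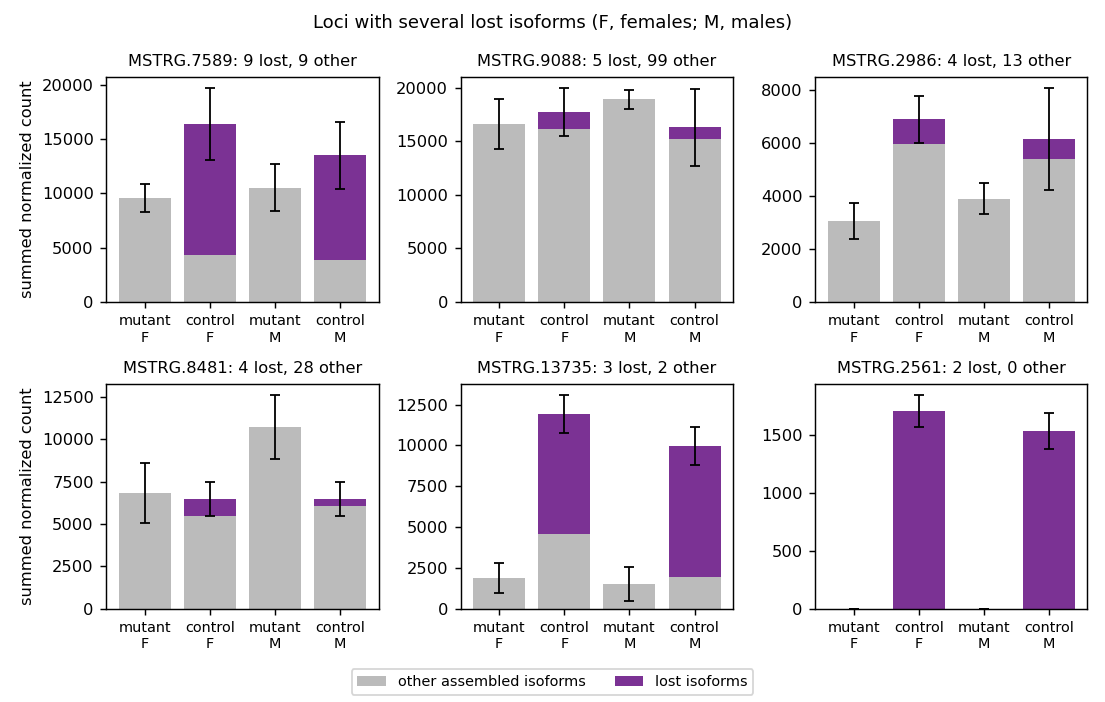
Summed normalized count of the lost isoforms (purple) and of all other assembled isoforms (grey) of the 5 loci that lost 3 or more isoforms and of MSTRG.2561, the first by number of 7 loci that lost 2, as the mean of 3 libraries per group, mutants left of controls, with bars for the SD of the total. The lost isoforms are at 0 in the mutants, apart from a mean of 0.279 in mutant males for MSTRG.9088. By the means of each sex, the grey part is higher in mutants than in controls for MSTRG.7589, MSTRG.8481 and MSTRG.9088. It is lower for MSTRG.2986 and MSTRG.13735, and MSTRG.2561 has none.

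Since both sexes entered the rule in the same way, the difference between control males and control females was not used to choose the transcripts and could be tested. The test was limma on log2(normalized count + 1) over the 35284 transcripts that reached 10 in 3 or more libraries, and a transcript was called at a Benjamini-Hochberg adjusted p under 0.05. Of the 82 lost transcripts, 0 were called higher and 1 lower in control males than in control females. Over all transcripts tested, 9.3% were called higher and 0.692% lower, and over the other 2848 assembled transcripts that reached 10 in every control, 1.65% and 0.667% (2.32% in either direction). The minimum of 10 in both sexes excludes transcripts restricted to one sex, so the second pair is the closer comparison, and the lost transcripts lay near it. At an unadjusted p under 0.05, limma gave 2 higher and 7 lower. No share of other transcripts at this threshold is given, so these counts are not read as a trait of the lost transcripts. The edgeR quasi-likelihood test on recovered reads called 0 in either direction, and DESeq2 called 1 higher (MSTRG.2028.2) and 1 lower.

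The transcript called was MSTRG.13735.5, whose values in the 6 control libraries are given above, with a log2 difference of -2.06 (SE 0.49, adjusted p = 0.021, limma). Every control male lay below every control female. The call was lost under edgeR (adjusted p = 0.054) and without any one of replicates 1, 2 or 3 of the control females or replicates 2 or 3 of the control males, with adjusted p up to 0.10 by limma. Its neighbours in the same locus, MSTRG.13735.2 and MSTRG.13735.3, overlapped between the sexes.

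The remaining lost transcripts showed small or scattered differences between the sexes. The median log2 difference, control males over control females, was -0.16 over the 82, against -0.18 over the other assembled transcripts with the same control minimum and -0.0041 over all transcripts. By their means, 33 were higher in control males and 49 in control females, and the difference exceeded 1 on the log2 scale for 15. The extremes were MSTRG.12061.6, at -2.50 (adjusted p = 0.23, limma), and MSTRG.711.4, at 1.77 (adjusted p = 0.52). Every control male lay above every control female for 2 lost transcripts and below for 5, where the background was 6.25% and 9.52% over the other assembled transcripts and 15.7% and 7.48% over all transcripts.

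**Figure D3:**
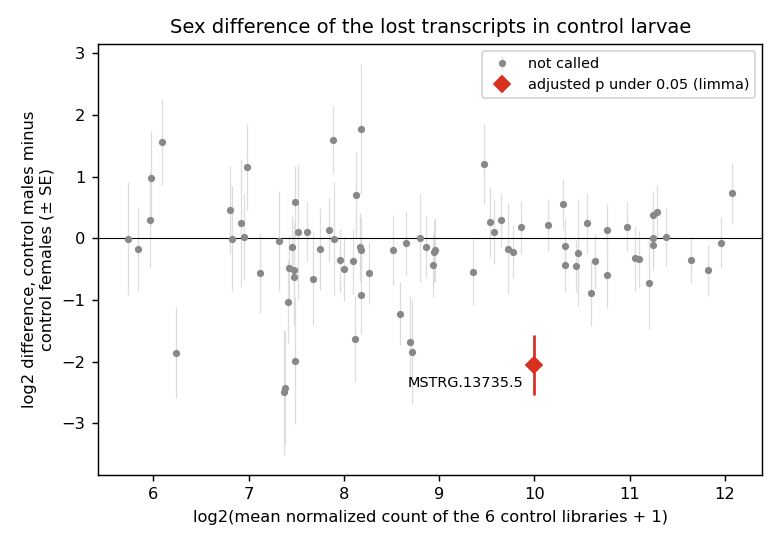
Log2 difference, control males minus control females (vertical, bars for the SE), against log2 of the mean normalized count of the 6 control libraries + 1 (horizontal), with 1 point for each of the 82 lost transcripts. The points spread around 0 between -2.50 and 1.77, and limma called MSTRG.13735.5 alone.

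Loss of an isoform could leave the rest of its locus or nothing. In 14 loci with 16 lost transcripts every assembled isoform was lost, and 12 of these loci had a single assembled isoform. Whether known or filtered isoforms of these loci remained in the mutants was not examined. In 4 of the other 41 loci (MSTRG.1012, MSTRG.9886, MSTRG.15552 and MSTRG.16455) the other isoforms summed to at most 3 in every mutant library too, so that 18 of the 55 loci held no assembled isoform above 3 in any mutant library. In the 41 loci with other isoforms, the lost ones made up between 0.265% and 100% of the control count, with a median of 49.1%. They made up more than 50% in 19 loci and more than 90% in 4, and the most abundant isoform of the controls was a lost one in 20.

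The total of these 41 loci, lost isoforms included, is described without a test. Its log2 ratio, mutants over controls, was under -1 in 26 loci in females and 18 in males, between -1 and 1 in 13 and 20, and above 1 in 2 and 3. The medians were -1.47 in females and -0.92 in males, against 0 and 0.12 over the 2223 other assembled loci, of which 18.7% and 20.2% were under -1. The loss itself lowers this total, by an amount that depends on the share the lost isoforms held. In MSTRG.13735 the total was 1861 ± 923 in mutant females against 11940 ± 1165 in control females, and 1504 ± 1027 in mutant males against 9944 ± 1157 in control males (SD, n = 3 each). In MSTRG.9088 it was 16637 ± 2369 in mutant females against 17771 ± 2244 in control females, and 18929 ± 876 in mutant males against 16310 ± 3606 in control males.

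The isoforms of these loci that were not lost were not used by the rule, although the division of reads ties them to the lost ones. Of 318 such isoforms in the 41 loci, 255 were tested. In females, 18 were called higher and 24 lower in mutants than in controls. The background was 7.12% higher and 5.68% lower over all transcripts, and 8.32% and 5.53% over assembled transcripts of other loci. In males, 17 were called higher and 24 lower, against 7.11% and 9.12% over all transcripts and 10.2% and 5.57% over assembled transcripts of other loci. The share called in either direction was 16.5% in females and 16.1% in males, close to 13.8% and 15.7% in other assembled loci. This pooled share hides the direction. More of these isoforms were called lower than higher in each sex, while in other assembled loci more were called higher. Over all transcripts more were called higher in females and lower in males. The difference in direction was not tested. The median log2 fold change was -0.09 in females and -0.05 in males, against 0 and -0.10 over all transcripts.

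The calls of both sexes pointed the same way where they met. Both sexes called 9 isoforms up and 14 down, and 0 in opposite directions. The 60 isoforms called in at least one sex lay in 23 loci, and of the 41 loci 15 held an isoform called up, 16 one called down and 8 both. No share over all transcripts is given for these counts or for calls shared by the sexes. They are therefore not read as a trait of these loci. The counts moved with the test: edgeR called 24 in females and 26 in males, and DESeq2 called 69 and 70. Without replicate 1 of the control females limma called 26 in females. Without replicate 2 of both the mutant and the control males, an alternative chosen after seeing the data, it called 31 in males.

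Of the 318 other isoforms, 2 met the reversed rule, against 91 of all 5933 assembled transcripts. Such isoforms were thus not more frequent in loci with a loss. MSTRG.5613.2 had 2324, 5027 and 151 in mutant females and 3108, 629 and 1094 in mutant males, against 0 in all 6 control libraries, at least 955-fold higher in mutant females and 571-fold higher in mutant males (adjusted p = 2.9e-04 and 2.5e-04, limma). MSTRG.1949.5 had 118, 493 and 340 in mutant females and 970, 322 and 371 in mutant males, against 0 in all controls (adjusted p = 4.2e-05 and 1.8e-05). The mutant and control libraries did not overlap for either.

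A further 4 isoforms showed the largest rises that were called in both sexes. MSTRG.8937.6 had 653, 2109 and 890 in mutant females against 29.1, 56.3 and 103 in control females, and 2773, 1528 and 1470 in mutant males against 105, 40.9 and 82.7 in control males, with log2 fold changes of 4.25 and 4.68. MSTRG.12861.1 had 967, 1240 and 1809 in mutant females against 116, 63.4 and 15.6 in control females, a log2 fold change of 4.70 (SE 0.78, adjusted p = 0.0036, limma). In males its log2 fold change was 4.03 (adjusted p = 0.0074), and the call was lost without both replicate 2 male libraries (adjusted p = 0.057). Every mutant library lay above every control library for these isoforms.

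MSTRG.11510.10 had 1580, 1614 and 795 in mutant females against 177, 196 and 235 in control females, a log2 fold change of 2.65 (SE 0.34, adjusted p = 7.0e-04, limma). In males it had 1838, 1047 and 1873 in mutants against 155, 181 and 164 in controls, and the log2 fold change was 3.20. MSTRG.1949.2 had 1215, 1049 and 1094 in mutant females against 371, 271 and 319 in control females, a log2 fold change of 1.81, and 1865, 2582 and 1962 in mutant males against 218, 289 and 117 in control males, a log2 fold change of 3.44. In MSTRG.1949 the risen isoforms thus stood beside the lost MSTRG.1949.1, which was among the steadiest in the controls.

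**Figure D4:**
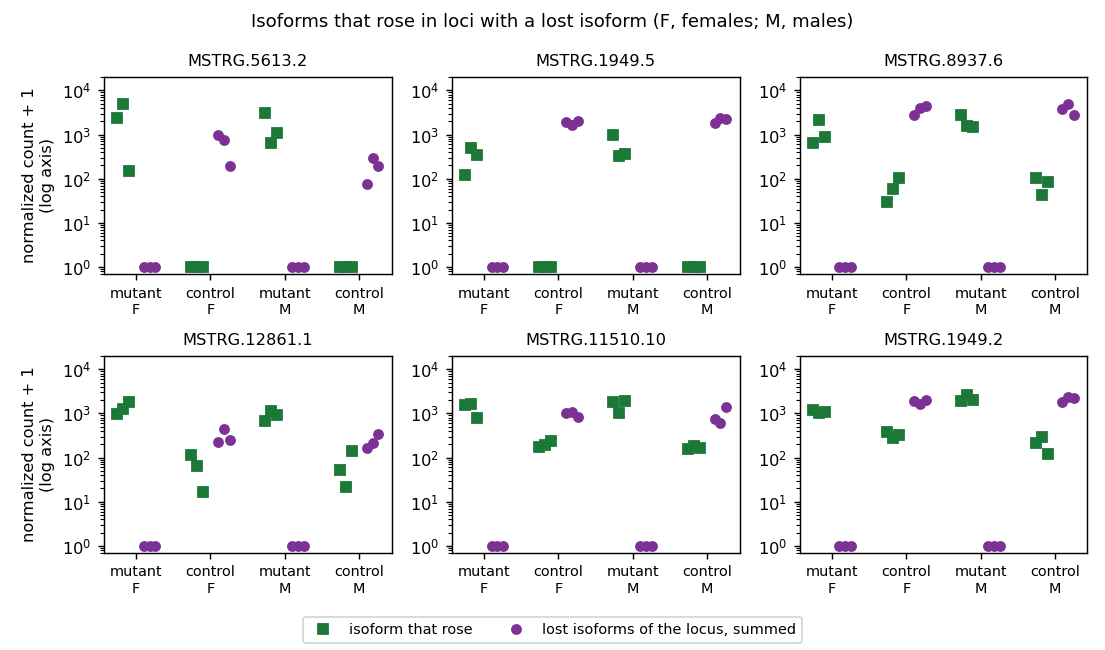
Normalized count + 1 (vertical, log axis) in each of the 12 libraries for the 6 isoforms with the largest rises called in both sexes (green squares) and for the summed lost isoforms of the same locus (purple circles), mutants left of controls within each sex. MSTRG.5613.2 and MSTRG.1949.5 are at a count of 0 in all 6 controls, every green mutant point lies above every green control point of its sex, and the purple points are at 0 in the mutants.

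Other isoforms fell almost as far as the lost ones and missed the rule through a single sex or library. MSTRG.8937.2 had 0 in all 3 mutant female libraries against 2202, 2059 and 2329 in control females, at least 631-fold lower (adjusted p = 1.7e-07, limma). In males it had 77.0, 119 and 238 in mutants against 2161, 2853 and 1956 in controls, a log2 fold change of -4.13 (SE 0.41, adjusted p = 1.2e-04). In the locus MSTRG.8937, isoforms 1 and 3 were thus lost in both sexes and isoform 2 was at 0 in mutant females, while isoform 6 rose in both.

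MSTRG.11510.27 had 0 in mutant females against 703, 301 and 545 in control females, and 31.6, 0 and 0 in mutant males against 296, 392 and 617 in control males. MSTRG.9088.48 had 7.29, 0 and 0 in mutant females against 258, 237 and 214 in control females, and 0 in mutant males against 144, 444 and 325 in control males. MSTRG.12861.7 had 0 in mutant females against 113, 402 and 96.2 in control females, and 9.87, 0 and 0 in mutant males against 706, 588 and 184 in control males. In each of these 3, 1 mutant library above 3 kept the isoform out of the lost set.

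MSTRG.13600.1 had 0 in mutant females against 992, 61.6 and 412 in control females, and 0, 21.7 and 0 in mutant males against 983, 45.9 and 525 in control males. MSTRG.9088.60 had 48.6, 0 and 0 in mutant females against 315, 294 and 163 in control females, and 0 in mutant males against 620, 509 and 133 in control males. All of these falls were called in both sexes, but edgeR did not call MSTRG.11510.27 in males (adjusted p = 0.11), MSTRG.13600.1 in males (adjusted p = 0.12) or MSTRG.9088.60 in females (adjusted p = 0.22, and 0.10 by DESeq2). In limma, the call of MSTRG.13600.1 in males was also lost without replicate 1 or 3 of either male group (adjusted p from 0.055 to 0.064), and that of MSTRG.9088.60 in females without replicate 1 or 2 of the control females or 2 or 3 of the mutant females (adjusted p from 0.052 to 0.055).

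Summing the other isoforms of each locus to 1 value, with the lost ones left out, gave 39 loci that could be tested. The background was a table of 32317 features, in which all other assembled loci were summed too. Known transcripts and transposable element insertions stayed single in it, so most of the background was unsummed. No share for summed assembled loci alone is given. In females, 4 were called higher and 8 lower in mutants than in controls, where the background was 7.23% and 5.54%. In males, 5 were called higher and 4 lower, where the background was 7.14% and 9.54%. In females 30.8% of these loci were thus called and in males 23.1%, beside 12.8% and 16.7% of the whole table. This difference was not tested, and the features compared were unlike. The median log2 fold change was -0.73 in females and -0.16 in males, against 0 and -0.11 over the table. The female count was 7 by edgeR, and 5 or 7 by limma without replicate 2 or replicate 3 of the control females. The male count was 4 when only the male libraries were fitted 5 without replicate 3 of the mutant males and 6 without replicate 2 of both male groups.

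Both sexes called 6 of the 39 loci, 3 up and 3 down, and no share called in both sexes over the whole table is given. The rest of MSTRG.7589 was higher in mutants: 9577 ± 1290 in mutant females against 4275 ± 1192 in control females, a log2 fold change of 1.20 (SE 0.28, adjusted p = 0.020, limma), and 10525 ± 2168 in mutant males against 3866 ± 1174 in control males, a log2 fold change of 1.47 (SE 0.28, adjusted p = 0.0069; SD, n = 3 each). The call in females was lost without replicate 2 of the control females (adjusted p = 0.076) or of the mutant females (adjusted p = 0.065). With the lost isoforms included, the total of the locus was 9577 ± 1290 in mutant females against 16400 ± 3339 in control females, and 10525 ± 2168 in mutant males against 13506 ± 3078 in control males. The rise of the remaining isoforms was thus smaller than the count that had been lost.

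The rest of MSTRG.1949 was 1475 ± 111 in mutant females against 365 ± 42.0 in control females, a log2 fold change of 2.01 (SE 0.32, adjusted p = 0.0031, limma), and 2761 ± 296 in mutant males against 274 ± 131 in control males, a log2 fold change of 3.45. MSTRG.15421 had log2 fold changes of 0.95 in females and 0.75 in males (adjusted p = 0.014 and 0.032). Its male call was lost under edgeR (adjusted p = 0.061) and without replicate 1 or 2 of the control males or 1 or 3 of the mutant males (adjusted p from 0.060 to 0.11), and its female call without replicate 2 of the control females (adjusted p = 0.051). MSTRG.11510 had -1.16 and -1.18 and MSTRG.11401 -1.43 and -1.70 in females and males. The female call of MSTRG.11401 was lost under edgeR (adjusted p = 0.057) and without any female library other than replicate 3 of the mutants (adjusted p from 0.063 to 0.10), and its male call without replicate 1 of the control males (adjusted p = 0.058). MSTRG.13600, whose only other isoform is MSTRG.13600.1 above, had the largest fall of the 6 in both sexes. A limma fit of the male groups alone lost the male calls of MSTRG.15421 (adjusted p = 0.12), MSTRG.11401 (0.064) and MSTRG.13600 (0.063). Without both replicate 2 male libraries, the male call of MSTRG.15421 was lost too (adjusted p = 0.086, limma).

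**Figure D5:**
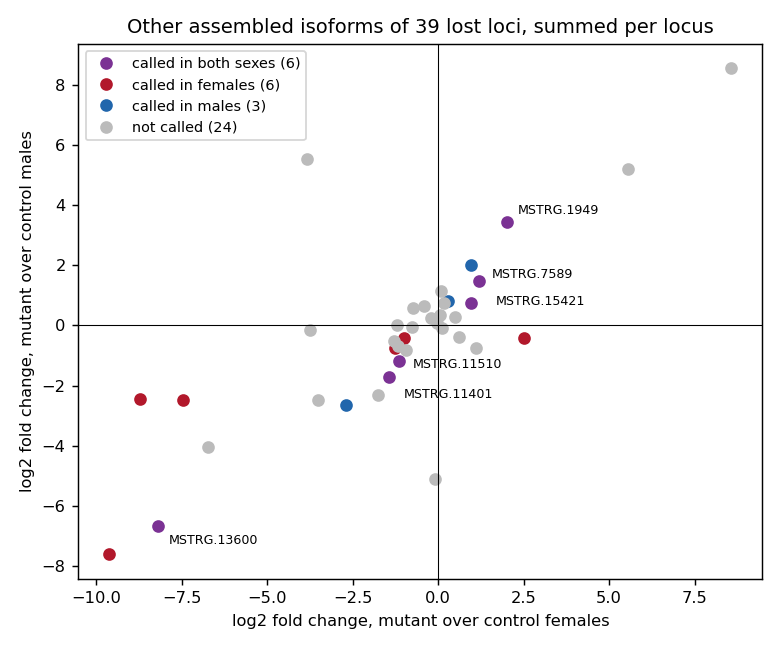
Log2 fold change of the summed other isoforms, mutants over controls, in males (vertical) against females (horizontal) for 39 lost loci, 1 point per locus, coloured by the sexes in which limma called it. The 6 loci called in both sexes lie in the quadrants where both sexes moved the same way, 3 up and 3 down.

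The 9 loci called in one sex were called in females for 6 and in males for 3. In females, the rest of MSTRG.9886, MSTRG.16455, MSTRG.711, MSTRG.8937 and MSTRG.2986 was lower and that of MSTRG.9617 higher in mutants. In males, the rest of MSTRG.1103 and MSTRG.8481 was higher and that of MSTRG.241 lower. The rest of MSTRG.2986 was 3062 ± 683 in mutant females against 5988 ± 686 in control females (log2 fold change -0.99, SE 0.27, adjusted p = 0.039, limma), and that of MSTRG.8481 was 10741 ± 1893 in mutant males against 6069 ± 1003 in control males (log2 fold change 0.82, SE 0.22, adjusted p = 0.032; SD, n = 3 each). A call in one sex does not show a difference between the sexes, and the interaction of sex and genotype was called for 1 of the 39 loci, MSTRG.9617, lower in males, where 0.684% of the table was called lower and 0.789% in either direction. By edgeR the calls of MSTRG.2986, MSTRG.8481, MSTRG.9886, MSTRG.16455, MSTRG.711 and MSTRG.8937 were lost, with adjusted p between 0.052 and 0.10. Within the sex compared, leaving out 1 library lost the calls of MSTRG.9886 and MSTRG.711 for each of the 6 female libraries, that of MSTRG.2986 for each but replicate 3 of the mutant females, and that of MSTRG.8937 for each but replicate 2 of the mutant females. It lost the call of MSTRG.8481 for replicates 2 and 3 of both male groups. It lost that of MSTRG.241 for replicates 1 and 2 of the control males and 1 and 3 of the mutant males. The adjusted p over these omissions ran from 0.053 to 0.15. A limma fit of the compared groups alone also lost MSTRG.241 (adjusted p = 0.15), MSTRG.8937 (0.13) and MSTRG.8481 (0.077). A replicate block lost MSTRG.8937 (0.058) and MSTRG.8481 (0.053). Without both replicate 2 male libraries, MSTRG.241 (0.13), MSTRG.8481 (0.14) and MSTRG.8937 (0.054) were lost. The call of MSTRG.241 was also lost without any 1 of the 6 female libraries (0.061 to 0.065). That of MSTRG.8937 was lost without any 1 male library but replicate 2 of the controls (0.0503 to 0.064). That of MSTRG.2986 was lost without replicate 1 of the control males (0.057) or 3 of the mutant males (0.0502). With no filter on low values, MSTRG.8937 (0.054) and MSTRG.241 (0.053) were lost, and with a pseudocount of 0.5 MSTRG.241 (0.0507).

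The change from controls to mutants was compared between the sexes for the 255 other isoforms. The interaction was called for 3 of them, 2 higher and 1 lower in males than in females, where 0.125% of all transcripts were called higher and 0.675% lower (0.799% in either direction). MSTRG.2014.3 had 0 in all mutant females and in all controls of both sexes, and 257, 769 and 269 in mutant males, at least 153-fold higher than in control males. MSTRG.8937.2, whose values are above, was at 0 in mutant females and reduced in mutant males. MSTRG.9617.7, the only isoform of its locus besides the lost MSTRG.9617.5, had 323, 306 and 155 in mutant females against 43.7, 34.8 and 51.3 in control females, and 313, 389 and 447 in mutant males against 374, 539 and 634 in control males. It was higher in mutants in every female library, while the male groups overlapped. The count was 1 by edgeR, 22 by DESeq2, and 1 without replicate 1 or replicate 3 of the mutant males.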

How the data were processed

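Whole larvae of the third instar from 4 groups were analysed, with 3 libraries per group and none left out. The groups were taken from the labels, which do not say whether the libraries of a group came from separate cultures, so p-values measure the spread between these libraries only. The processing is described in the submitters' notes and the methods. Reads were trimmed with Trimmomatic (version 0.39) and mapped with HISAT2 (version 2.2.1) to BDGP6. Transcripts were assembled and quantified with StringTie (version 2.1.5), and counts were normalized with DESeq2 (version 1.32.0). Assembled transcripts were filtered by exon number and length. The paper then used coding potential and protein domains to sort them into mRNAs and long non-coding RNAs, and kept both. The class of each lost transcript is not given here. The deposited unit is a signal, namely a transcript's read count over its library's size factor. Each deposited value was a whole multiple of what 1 read is worth in its library, and 100% of the values up to 1000 reads came out whole within 0.01.

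Lost transcripts were chosen with the rule stated above. The lost transcripts, the rule and the lists were chosen with earlier results of these data known, so they are no independent evidence. The tests were limma (version 3.58.1, R 4.3.3) on log2(normalized count + 1), fitted to all 12 libraries with a mean for each group, an intensity trend and Benjamini-Hochberg adjustment over the 35284 transcripts that reached 10 in 3 or more libraries. Fold changes on this scale understate the change of low transcripts, and a fold against a group at 0 is a lower bound, computed against 3 reads in each library. Other isoforms of a locus were also summed, with the lost ones left out. Alternatives were the edgeR quasi-likelihood test (version 4.0.16) and DESeq2 (version 1.42.0) on recovered reads, TMM scaling, pseudocounts of 0.5 and 5, other filters, a fit of the compared groups alone, a replicate block and omission of each library. The tests were tried on simulated data.

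The transcripts named were the 12 most abundant lost ones, all lost isoforms of the 6 loci with most of them (ties by locus number), those called between the sexes of the controls, those nearest to each threshold, and the other isoforms with the 6 largest rises and 6 largest falls called in both sexes without overlap. Further isoforms named for a difference between the sexes or for a single library were chosen after their values were seen. No annotation that links the assembled identifiers to genes, positions or sequences was used here.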

Additional observations from a re-analysis of the deposited data

Results flagged for a closer look

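For 3 of the 255 other isoforms and for 1 summed locus, the change from controls to mutants differed between males and females in the limma interaction test. For MSTRG.2014.3, which had reads in the mutant males and in no other group, the difference, males minus females, was 8.56 on the log2 scale (adjusted p = 0.0012), but edgeR and DESeq2 did not call it (adjusted p = 1.0 and 0.079). For MSTRG.8937.2, at 0 in mutant females and between 77.0 and 238 in mutant males, it was 6.97 (SE 0.57, adjusted p = 6.3e-04). For MSTRG.9617.7 it was -2.92 (SE 0.53, adjusted p = 0.038), and the same value was found for the rest of the locus MSTRG.9617 (-2.92, adjusted p = 0.036), which consists of this isoform alone. The call of MSTRG.9617.7 was lost under edgeR (adjusted p = 0.095) and without any one of the 12 libraries other than replicate 3 of the mutant females and replicate 2 of the mutant males (adjusted p from 0.061 to 0.15). At an unadjusted p under 0.05, the interaction of 29 of the 255 isoforms passed. The share of all transcripts at that threshold is not given, so this count is not read as a trait of these isoforms.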

How the results depend on the processing

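No result changed direction under the alternatives tried. Of the transcripts and loci named with a test, 954 values kept their side of the threshold and 135 lost it. The number of lost transcripts was 83 on recovered reads, 75 and 85 with a control minimum of 20 and 5, 77 and 98 with a mutant maximum of 1 and 10, and 82 to 108 without 1 library. The call between the sexes of the controls numbered 1, against 0 by edgeR, 2 by DESeq2, 2 with only the groups of the contrast, and 0 to 1 without 1 library (0 without replicate 1 or 2 of the control females or replicate 2 or 3 of the control males). Other isoforms called numbered 42 in females and 41 in males, against 24 and 26 by edgeR, 69 and 70 by DESeq2, and 26 to 44 and 30 to 42 without 1 library. Summed loci called numbered 12 in females and 9 in males, against 7 in females by edgeR, 4 in males with only the groups of the contrast, and 5 to 13 and 5 to 9 without 1 library. The interaction was called for 3 isoforms, against 1 by edgeR, 22 by DESeq2, 1 with a filter of at least 10 in at least 6 libraries, and 1 to 4 without 1 library. The cause of these changes was not tested, apart from the fewer libraries or transcripts that some alternatives hold. The median log2 ratio of the summed other isoforms was -0.38, and -0.66 to -0.07 without 1 library.

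Deviations of same-numbered libraries correlated between the genotypes at 0.0096, 0.0007 and 0.0023 in females. In males the correlations were 0.0073, 0.186 and 0.0773, with replicate 2 the highest. The labels name no pairs, and the main fit did not take the numbers as pairs. A library correlated best with its own number in 1 of 3 cases in females and 2 of 3 in males. Between control males and control females it did so in 2 of 3. With a replicate block, 1 transcript was called between the sexes of the controls, 38 and 40 other isoforms and 12 and 8 summed loci in females and males, and 2 interactions.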

Other observations

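Several isoforms of lost loci were present or absent by library rather than by group, and were chosen after their values were seen. MSTRG.15079.5 had 7804, 0 and 5904 in mutant females and 0, 7763 and 6695 in mutant males, against 0 in all 6 control libraries, and was not called in either sex (adjusted p = 0.19 and 0.16, limma). MSTRG.15552.3 had 1026 in replicate 2 of the control females, 955 in replicate 2 of the control males and 0 in the other 10 libraries. MSTRG.9886.2 was at 0 in all mutants, against 485, 1068 and 932 in control females and 2482, 3027 and 0 in control males. Its single zero among the control males kept it out of the lost set, and it was called lower in mutant females (adjusted p = 0.029) but not in mutant males (adjusted p = 0.061).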
